A study of Mus musculus with 13 samples.

Results

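The cytosolic ribosomal protein genes were followed across bulk RNA sequencing of interscapular brown adipose tissue (iBAT) from 13 mice. Members were taken by symbol, as protein-coding genes named Rpl or Rps followed by a digit, with Rpsa, Rplp0, Rplp1 and Rplp2, and without the Rps6k kinases and pseudogene symbols. The rule found 86 genes among 42416 identifiers. Of these, 77 encode core ribosomal proteins, 31 of the small and 46 of the large subunit. The other 9 are the paralogs Rpl3l, Rpl7l1, Rpl10l, Rpl22l1, Rpl36al, Rpl39l, Rps27l and Rps27rt, and Rps19bp1, which encodes a binding partner of the Rps19 protein and is not a ribosomal protein.

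Of the 13 libraries, 1 per mouse, 8 are labelled iFAXLKO (floxed Axl, Cre positive) and 5 WT (floxed Axl, Cre negative). Both groups carried the same floxed Axl alleles, ate a high-fat diet (HFD) and lived at room temperature. Hydroxy-tamoxifen was given every 3 weeks to induce the knockout, and the study does not state whether Cre negative mice received it. Per the methods of the study, the Cre is Adipoq-CreERT2, an inducible recombinase driven by the adiponectin promoter, so that cells other than adipocytes keep Axl in whole tissue. The labels give no age or sex, and the study describes the mice of this sequencing as female. Fewer cells of a type and less RNA per cell cannot be told apart in such bulk libraries.

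Libraries held between 22.44 and 32.6 M counts, of which 18.33% to 21.31% came from mitochondrially encoded genes. Brown adipocyte markers summed to between 15960 and 26120 counts per M counts (CPM), and the markers of that list were all detected. Axl, the targeted receptor gene, stood at 28.4, 27.0, 26.3, 33.8 and 23.5 CPM in WT replicates 1 to 5 and between 26.5 and 43.9 CPM (median 31.7) in the libraries labelled iFAXLKO. It was thus not lower under that label, and the log2 fold change was 0.25 (SE 0.13, edgeR adjusted p = 0.699).

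A ribosome is built from ribosomal RNA and a set of small, mostly basic proteins, each of which is generally present in a single copy. The small subunit decodes the messenger RNA, and the large subunit joins the amino acids. Many of these genes are transcribed at high rates, and most of their mRNAs open with a cytosine followed by a run of pyrimidines, the 5′ terminal oligopyrimidine (TOP) motif, through which mTORC1 and LARP1 set how much of the mRNA is translated. In brown fat the proteins themselves are housekeeping parts, and several of their mRNAs serve as reference genes in quantitative PCR.

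The annotated starts of members are shown first, because a pyrimidine run at the start is the sequence feature this family is known for. RefSeq windows (GRCm38.p6, 250 bases before to 50 after an annotated start) were found for 57 of the 77 core genes, in 67 windows, and for all 9 other members, in 11 windows. Each sequence below covers 30 bases with the annotated start at base 16, read 5′ to 3′ on the gene's strand. Capitals mark the longest run of C and T that overlaps the stretch from 10 bases before to 10 bases after the start.
Rps6, chr4:86857353-86857382, minus strand: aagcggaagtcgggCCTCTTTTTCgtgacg
Rplp2, chr7:141447636-141447665, plus strand: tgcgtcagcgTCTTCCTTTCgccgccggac
Rps18, chr17:33955651-33955680, minus strand: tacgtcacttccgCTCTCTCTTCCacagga
Rps27, chr3:90213634-90213663, minus strand: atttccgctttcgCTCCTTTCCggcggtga
Rpl7a, chr2:26910792-26910821, plus strand: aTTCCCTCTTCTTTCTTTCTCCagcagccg
Rps3, chr7:99483695-99483724, minus strand: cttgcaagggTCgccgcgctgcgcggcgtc
Rps27l, chr9:66946071-66946100, plus strand: ccaCTCCTCCCCgccgcctctatcccggaa
Rpl3l, chr17:24727811-24727840, plus strand: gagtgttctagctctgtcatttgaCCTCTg
The runs of Rps6, Rplp2, Rps18 and Rps27 lie across the start itself, and each of these starts is a C. Rpl7a carries a run of 21 bases that begins 14 bases before the start. Rps3 has no more than 2 pyrimidines in a row there, although its mRNA level followed the other members most closely. Rpl3l, whose level went with muscle genes, has a run of 5 bases that begins at base 10, counting the start as base 1.

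A run of at least 8 pyrimidines in that stretch was present in 41.8% of the core windows (28 of 67, from 27 genes), beside 13.7% of the 21263 windows of protein-coding genes. A C at the start followed by 4 pyrimidines was present in 19.4% of the core windows (13), beside 2.21% of protein-coding windows. The 13 genes were Rpl14, Rpl15, Rpl28, Rpl35, Rpl35a, Rpl38, Rplp2, Rps6, Rps10, Rps15a, Rps18, Rps21 and Rps27. Among 75 windows of mitochondrial ribosomal proteins, which are made from nuclear genes but work inside mitochondria, 12.0% held such a run and 0 a C with 4 pyrimidines. In the whole window, on either strand, CCGGAAG, the core of a binding motif of the ETS factors, was present in 37.3% of core, 11.6% of protein-coding and 34.7% of mitochondrial ribosomal protein windows. AAGATGGCG, a motif of YY1, was present in 7.46%, 1.83% and 10.7% of these, and the TATA box letters TATAAA in 8.96%, 12.6% and 6.67%. GGGCGG, the GC box, was present in 61.2% of core and 46.2% of protein-coding windows, and CCAAT in 31.3% and 38.2%. These are matches of letters in windows around annotated starts, and no binding or start site use was measured.

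The core members were among the abundant mRNAs of brown fat, and their levels per kb of the principal transcript spanned 36.5-fold. Per kb of the principal transcript of GENCODE, the median core level was 121.3 CPM per kb, with quartiles at 81.7 and 199 CPM per kb. Rplp1, an acidic protein of the stalk that recruits translation factors, was highest with 536 ± 103 CPM per kb (SD, n = 13), and Rps29 next with 525.9 ± 97.2 CPM per kb. Both lay within their spread of each other, and Rplp1 led in 9 of the 13 libraries. Rplp2, the partner of Rplp1 in the stalk, followed with 387 ± 76.6 CPM per kb. The lowest core levels on this scale were those of Rps20 (31.4 CPM per kb), Rpl15 (29.1 CPM per kb) and Rps15a (14.7 CPM per kb). Their annotated transcripts are long, with 3706, 1922 and 5179 bases, so these low ranks depend on the length used. Before division by length, Rps20 stood at 116.4, Rpl15 at 55.9 and Rps15a at 76.0 CPM. Mean core levels in CPM ran from 28.2 (Rpl27) to 372.7 (Rplp2). Per kb of the union of all exons, which is a median of 2.02 times longer than the principal transcript, the core median was 62.2 CPM per kb, with Rplp1, Rpl36 (334 CPM per kb) and Rps29 (296 CPM per kb) on top. The median over protein-coding genes tested was 4.22 CPM per kb on that same scale.

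**Figure D1:**
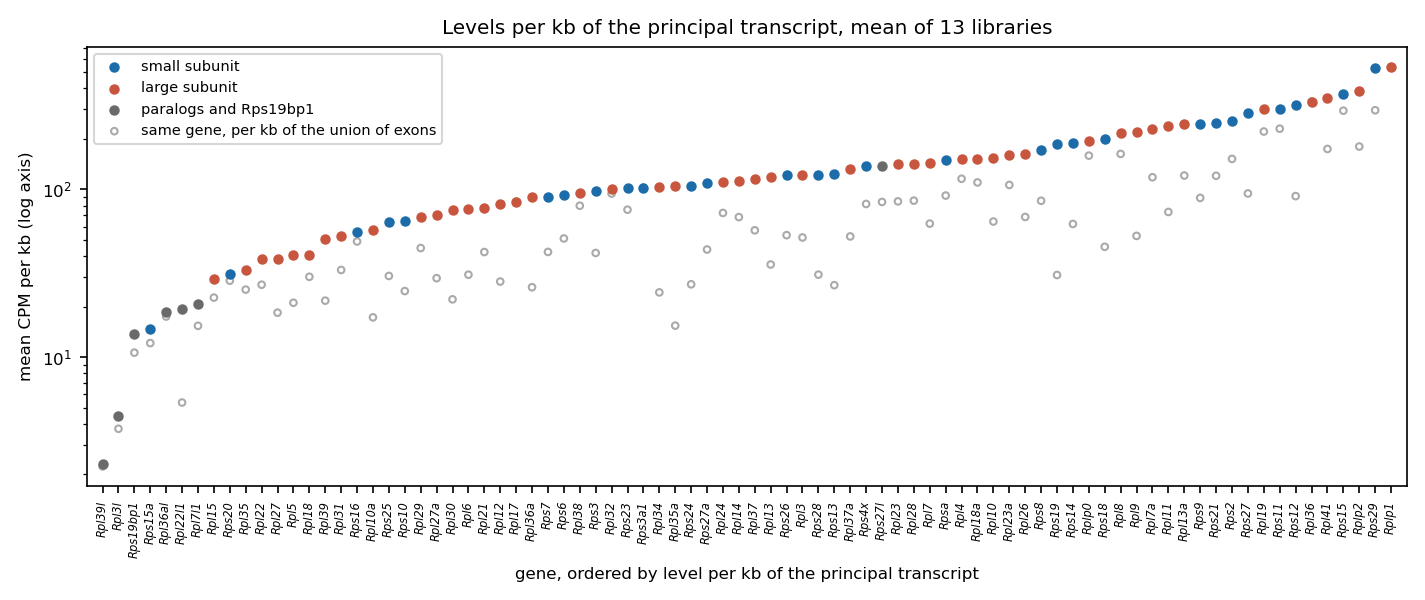
Mean level over 13 libraries of 82 tested members, in CPM per kb of the principal transcript on a log axis, ordered from low to high and coloured by subunit; grey rings give the same gene per kb of the union of exons. Core genes run from 14.7 (Rps15a) to 536 (Rplp1) CPM per kb, and Rpl39l (2.30 CPM per kb) and Rpl3l (4.47 CPM per kb) lie below all of them.

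Small subunit genes had a median of 136.8 and large subunit genes of 113.4 CPM per kb of the principal transcript. The order of the core levels was kept from library to library, with Spearman's rho between 0.986 and 0.994 (lowest and median) over 78 pairs of libraries, whose points share gene lengths. Of the 76 neighbouring pairs in that order, 72 had means that differed by less than the larger of their SDs over libraries. The exceptions were the steps from Rps29 to Rplp2, from Rpl39 to Rpl18, from Rpl22 to Rpl35 and from Rpl15 to Rps15a. These SDs include the swing that core genes share, so the count does not show how often neighbours changed places within a library.

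Near-identical copies limit these levels. In the median core gene, 51.7% of the stretches of 50 bases in the principal transcript also occur in transcripts of another annotated gene, and up to 98.6% in Rps27. GENCODE M21 holds 9941 processed pseudogenes, of which 1 is among the identifiers counted. By symbol, 12 of the identifiers are named as pseudogenes of ribosomal proteins. How reads that map to several places were counted is not given in the sources used here. The share of copied stretches had no clear relation to level (Spearman's rho 0.099 across 77 genes, which are not independent replicates).

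No ribosomal protein gene passed the test between the groups, and the intervals were narrow. Of 86 members, 84 passed the filter of more than 1 CPM in at least 5 libraries, and none was called at an adjusted p under 0.05 by edgeR, by DESeq2 or by limma-voom. The same fit called 17 of 13360 genes (0.127%), DESeq2 67 (0.502%) and limma-voom 23 (0.172%). At an unadjusted p under 0.05, edgeR and DESeq2 counted 0 of 84 members, beside 7.38% and 8.30% of all genes, and limma-voom counted 8, beside 11.4%. By the exact permutation test 0 of 84 lay under 0.05, beside 7.82% of all genes. CPM ranges of the groups overlapped for every tested member, beside separate ranges for 0.434% of all genes. Where the share over all genes is this low, as for separate ranges and for calls, 0 among 84 does not set the members apart.

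The median log2 fold change, iFAXLKO against WT, was -0.0155 over the 84 members and -0.0116 over all genes. It was -0.0202 over the small and -0.0049 over the large subunit, and 33 of 84 members (39.3%) lay above 0, beside 46.4% of all genes. Core values ran from -0.11 (Rpl35) to 0.10 (Rpl29), with standard errors between 0.0786 and 0.159. The 95% intervals of all 77 core genes lay between -0.41 and 0.39 on the log2 scale, within a 1.5-fold change in either direction. The direction of these small values rested on WT replicate 2, described further on: without it the member median was 0.14 and 82 of 84 members lay above 0, beside 51.5% of all genes. In that fit 23 members had an unadjusted p under 0.05, all above 0, beside 12.0% of all genes in either direction and 5.62% above 0. None was called, beside 0.142%, and their smallest adjusted p was 0.242, for Rpl11.

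**Figure D2:**
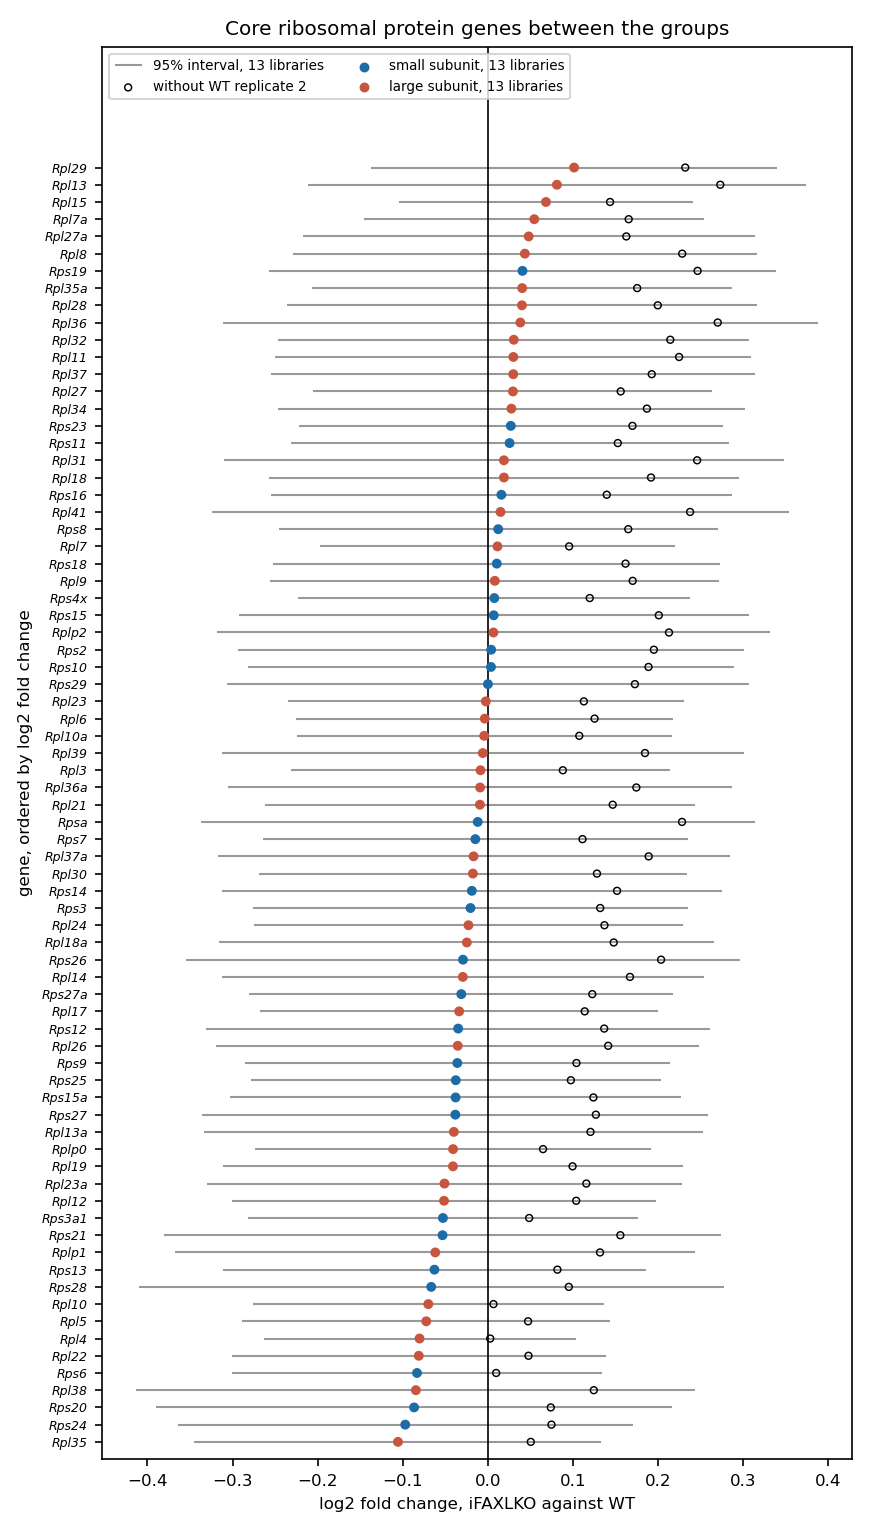
Log2 fold change, iFAXLKO against WT, of 75 core genes, with the 95% interval over 13 libraries (grey line) and the value without WT replicate 2 (ring); filled points are coloured by subunit. All intervals cross 0, filled points run from -0.11 to 0.10, and every ring lies to the right of its point and above 0.

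The members with the smallest p values below 0 were Rpl7l1, Rpl35, Rpl4, Rpl36al and Rps6. Rpl35, of the exit of the peptide tunnel, stood at 27.9, 46.3, 30.9, 29.1 and 29.6 CPM in WT replicates 1 to 5 and between 27.3 and 33.5 CPM (median 30.3) under iFAXLKO. Its log2 fold change of -0.11 (SE 0.11, edgeR adjusted p = 0.894) was 0.05 without WT replicate 2, the library that alone lay above the iFAXLKO range. Rpl4, which reaches into the tunnel, gave -0.08 (SE 0.08), and Rps6, the S6 kinase substrate that reports mTORC1 activity, gave -0.08 (SE 0.10).

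The members with the smallest p values above 0 were Rpl29, Rpl13, Rpl15, Rpl27a and Rpl7a. Rpl29, a small surface protein of the large subunit, stood at 43.1, 64.9, 49.7, 42.5 and 40.4 CPM in WT replicates 1 to 5 and between 45.1 and 57.2 CPM (median 52.6) under iFAXLKO. Only WT replicates 2 and 3 reached into or past the iFAXLKO range. Its log2 fold change was 0.10 (SE 0.11, edgeR adjusted p = 0.898), with an exact permutation p of 0.312, 2-sided, the smallest among core genes, and 0.23 without WT replicate 2 (adjusted p = 0.302). Rpl13 gave 0.08 (SE 0.13), and 0.27 without WT replicate 2.

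Among members with a role beyond the bulk of the particle, none was called. The stalk proteins gave log2 fold changes of -0.04 (Rplp0, SE 0.11), -0.06 (Rplp1, SE 0.14) and 0.01 (Rplp2, SE 0.15). Rpl5 and Rpl11, which with the 5S RNA can bind MDM2 and so link ribosome assembly to p53, gave -0.07 (SE 0.10) and 0.03 (SE 0.13). Rps27a, made as a fusion with ubiquitin, gave -0.03 (SE 0.11). Rps19 and Rps26, whose mutations cause Diamond-Blackfan anaemia, gave 0.04 (SE 0.14) and -0.03 (SE 0.15).

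Rpsa, of the small subunit and also known as the laminin receptor precursor, varied widely among WT libraries, at 227, 472, 242, 253 and 269 CPM in replicates 1 to 5. Under iFAXLKO it lay between 262 and 322 CPM (median 285), so that WT replicate 2 lay far above and replicates 1, 3 and 4 below that range. The log2 fold change was -0.01 (SE 0.15), and 0.23 without WT replicate 2 (edgeR adjusted p = 0.271).

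What varied was the common level of the family between mice, far more than its composition. Members took 0.825, 1.297, 1.052, 0.967 and 0.809% of counts in WT replicates 1 to 5 and between 0.878 and 1.182% (median 1.038) under iFAXLKO. Group means were 0.990 ± 0.199% (SD, n = 5) and 1.027 ± 0.103% (SD, n = 8), and 0.913 ± 0.117% for WT without replicate 2. From the lowest to the highest library the share differed 1.60-fold, while the ratio of large to small subunit counts differed 1.04-fold, between 1.372 and 1.428. That ratio was 1.400 ± 0.0163 (SD, n = 5) in WT and 1.408 ± 0.0183 (SD, n = 8) under iFAXLKO.

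**Figure D3:**
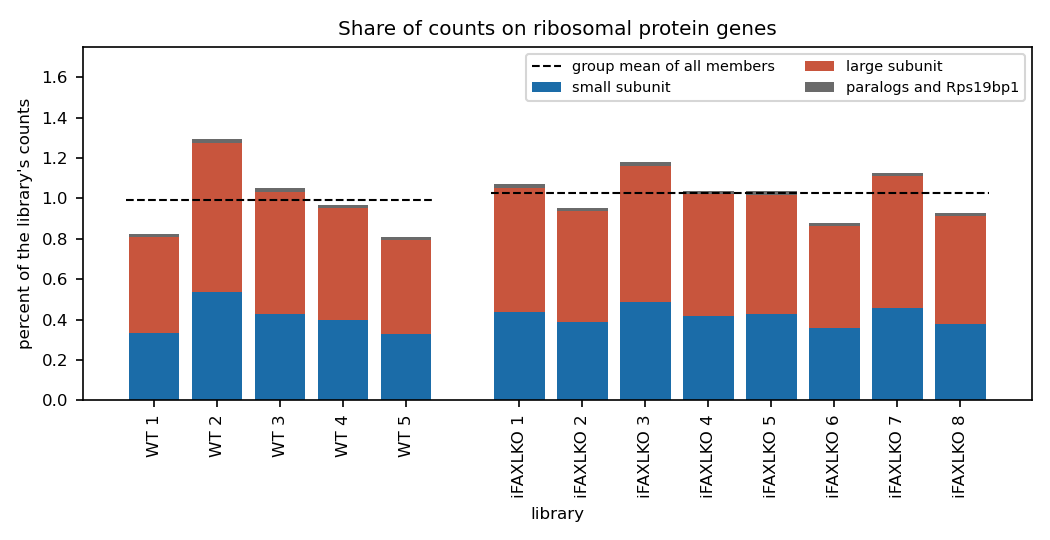
Percent of a library's counts on small subunit genes (blue), large subunit genes (red) and the other members (grey), stacked from 0 for each of the 13 libraries; dashed lines give the group means of all members. WT replicate 2 is highest at 1.297% and WT replicates 5 and 1 lowest at 0.809% and 0.825%, and the split between the subunits looks alike in all libraries.

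WT replicate 2 was the highest library for all 77 core genes, beside 25.5% of all genes tested. Its log2 CPM lay above the mean of the other WT libraries by a median of 0.67 over core genes (range 0.34 to 0.93) and by 0.01 over all genes. The lowest library was WT replicate 5 for 35 and WT replicate 1 for 32 core genes, so that the extremes of the family lay within the WT group. Under iFAXLKO the core score, the mean log2 CPM of core genes less its mean over libraries, was highest in replicate 3 (0.19) and lowest in replicate 6 (-0.16).

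**Figure D4:**
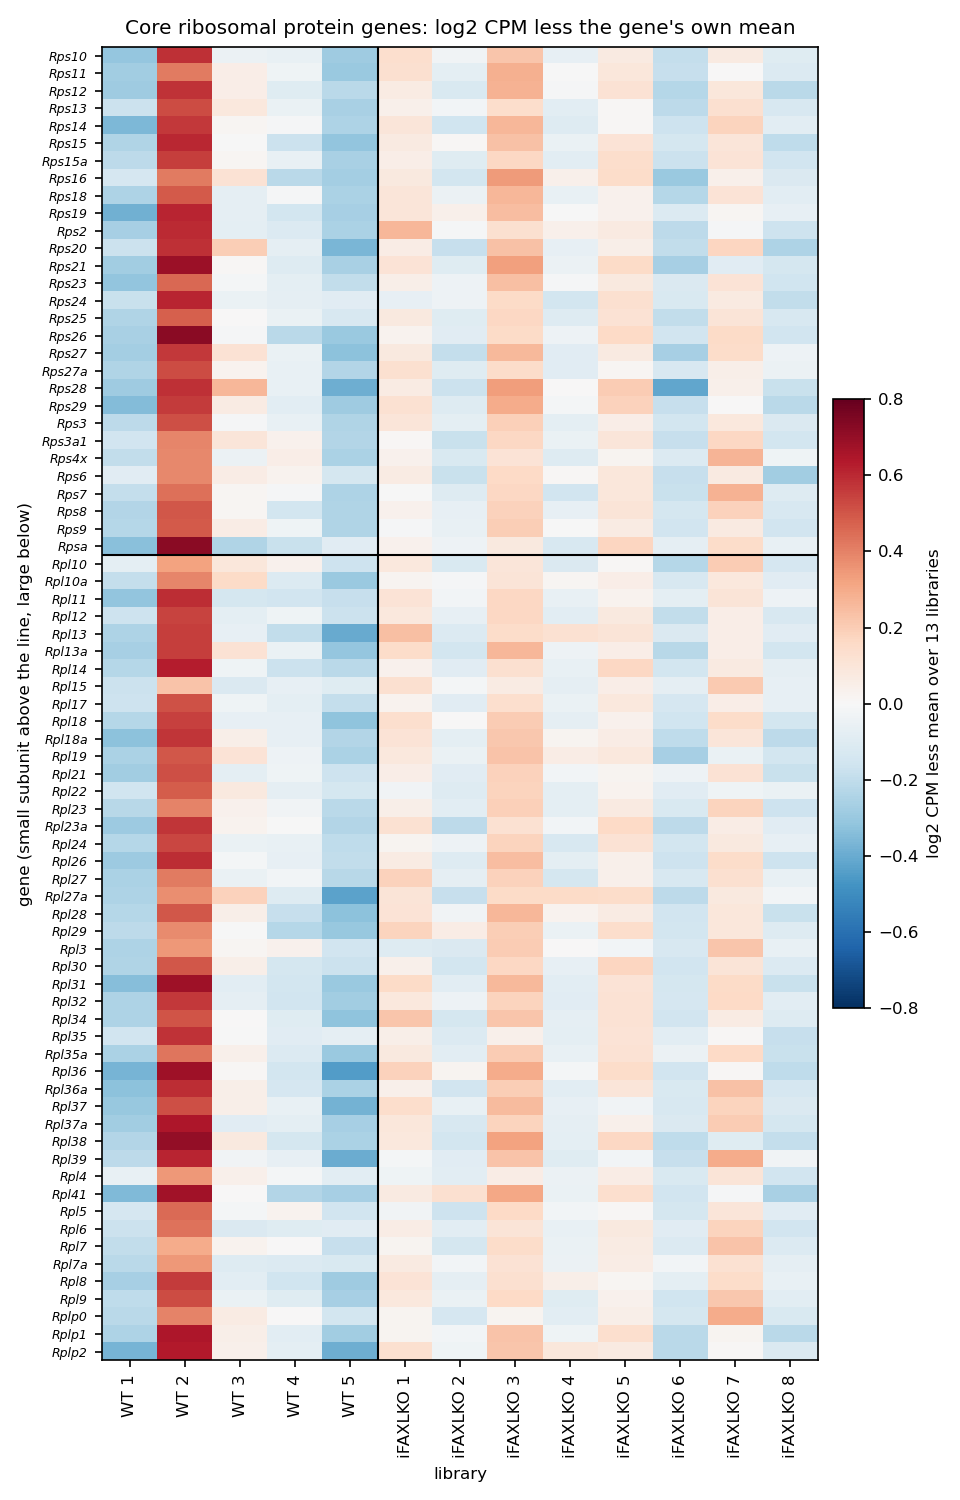
Log2 CPM less the gene's own mean over 13 libraries, for 75 core genes (rows, small subunit above the line) in 5 WT and 8 iFAXLKO libraries (columns); red is above and blue below the mean. The WT replicate 2 column is red for all 75 genes drawn, the columns of WT replicates 1 and 5 are mostly blue, and no column splits by subunit.

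Transcript length moved with that pattern. Among other protein-coding genes cut into 5 bands of equal size by length, WT replicate 2 lay above the mean of the other WT libraries by a median of 0.45 (log2) in the shortest band and 0.18 in the next, and by -0.00 in the middle, -0.19 in the fourth and -0.46 in the longest band. Among 372 other protein-coding genes with the lengths (887 to 1618 bases, the quartiles of the core) and levels of core genes, the median was 0.56 and 84.9% were highest in WT replicate 2. Core genes of those lengths had 0.64 (n = 39), and mitochondrial ribosomal proteins 0.61. The part of length or RNA quality in the level of the family was not tested.

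The core genes were then set against those 372 genes. The core score less the score of the 372 genes was 0.038 in WT replicate 2, where the core score itself was 0.518. It ran from -0.116 to 0.038 in WT (-0.032 ± 0.063, SD, n = 5) and from -0.114 to 0.176 under iFAXLKO (0.020 ± 0.099, SD, n = 8). The difference of 0.052 was smaller than either spread. Without WT replicate 2 it was 0.069, larger than the WT SD of 0.058 and smaller than that of iFAXLKO. The highest values were those of iFAXLKO replicates 7 (0.176) and 3 (0.141). With the score of the 372 genes as a covariate, edgeR called 0 members, beside 0.135% of all genes, and the member median was 0.05. Rps19, Rpl13, Rpl29 and Rpl36 had an unadjusted p under 0.05 there, all above 0 (edgeR adjusted p 0.299 to 0.431), beside 10.4% of all genes.

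**Figure D5:**
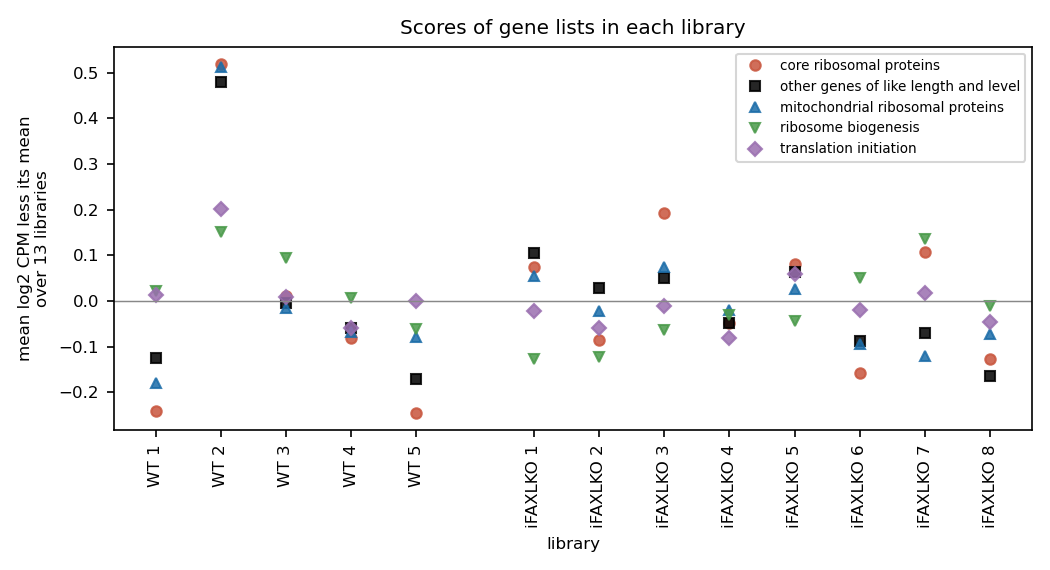
Mean log2 CPM of 5 gene lists in each of the 13 libraries, less the list's mean over libraries. In WT replicate 2 the core ribosomal proteins (0.518), the 372 other genes of like length and level (0.479) and the mitochondrial ribosomal proteins (0.513) stand together, above ribosome biogenesis and translation initiation factors.

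Core genes kept their ratios to each other closely. The SD of log2 CPM over 13 libraries had a median of 0.216 for core genes, beside 0.172 for the 4602 genes tested in the same range of CPM. After the mean log2 CPM of the other core genes was taken away in each library, the median SD was 0.066. It ran from 0.020 for Rps3 to 0.135 for Rps28. The same step was not run within other gene lists, so whether this evenness is particular to core genes was not tested. Rps3, which lines the entry of the mRNA channel, stood at 160, 265, 184, 178 and 157 CPM in WT replicates 1 to 5 and between 167 and 212 CPM (median 184) under iFAXLKO. Rps15a (0.028) was nearly as close to the mean of the other core genes. Pearson's r of a core gene's log2 CPM with the mean of the others had a median of 0.964 over 13 libraries and of 0.933 without WT replicate 2, from 0.842 for Rpl15 to 0.996 for Rps3 over all libraries, which share depth and RNA quality.

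The members in common use as reference genes shared the swing of the family. Rplp0 stood at 225, 344, 274, 262 and 236 CPM in WT replicates 1 to 5 and between 237 and 321 CPM (median 256) under iFAXLKO, a coefficient of variation of 13.1% and a 1.53-fold range over 13 libraries. The coefficient was 17.6% for Rpl13a (1.81-fold range), 17.0% for Rpl32 (1.79-fold) and 15.6% for Rps18 (1.68-fold), beside a median of 16.1% over core genes. None of these was called between the groups, with log2 fold changes of -0.04 (Rplp0), -0.04 (Rpl13a), 0.03 (Rpl32) and 0.01 (Rps18).

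The 6 tested paralogs were less abundant than their partners, and Rpl3l varied with the genes of another tissue. Rpl3l, the muscle form of Rpl3, stood at 13.2, 11.4, 4.97, 3.40 and 0.169 CPM in WT replicates 1 to 5, and at 13.3, 5.90, 0.604, 0.577, 20.1, 2.52, 3.64 and 0.119 CPM in iFAXLKO replicates 1 to 8. Each group thus held libraries with and nearly without it, and the log2 fold change was -0.18 with an SE of 1.03 (edgeR adjusted p = 0.987). Rpl3 itself lay between 137 and 207 CPM, and Rpl3l reached between 0.0749 and 12.3% of the level of Rpl3 per kb of the principal transcript.

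Rpl3l followed the score of 20 skeletal muscle genes across the libraries. Pearson's r was 0.978 and Spearman's rho 0.978 (n = 13, permutation p = 1e-05 for both, the smallest that 100000 resamples give, 7e-05 adjusted over 7 members). Without the 2 libraries farthest from the median muscle score, r was 0.991, within the lower range of library numbers 0.996 (n = 6), within the upper range 0.982 (n = 7), and 0.977 with each group centred. Summed muscle markers ran from 114 to 6931 CPM under iFAXLKO and from 146 to 4972 CPM in WT, with all 20 markers detected. For the other 6 members tested in this way, adjusted permutation p values were 0.504 or more for r and 0.387 or more for rho, with r between -0.24 and 0.41.

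Rps27l, a p53-responsive twin of Rps27, was the most abundant paralog, at 53.9, 105, 66.8, 63.4 and 57.6 CPM in WT replicates 1 to 5 and between 61.1 and 76.8 CPM (median 67.0) under iFAXLKO. Per kb of the principal transcript it held 48.2 ± 2.92% of the level of Rps27 (SD, n = 13). Its coding sequence is 76.2% identical to that of Rps27. Rpl22l1, an RNA-binding twin of Rpl22, held 50.3 ± 6.16% of its partner's level, Rpl36al 20.7 ± 2.1%, Rpl7l1 14.4 ± 1.46% and Rpl39l, a form best known from testis, 4.65 ± 1.59%. The ratios of Rps27l, Rpl36al and Rpl7l1 to their partners thus varied far less than that of Rpl3l. The percentages and their order depend on the length used, which the SD between libraries does not cover. Per kb of the union of exons, Rps27l stood at 84.1 CPM per kb beside 94.5 for Rps27. On that scale Rpl22l1 stood at 5.36 beside 27.0 for Rpl22, and Rpl36al at 17.45 beside 26.1 for Rpl36a. Rps27rt has a coding sequence identical to that of Rps27 (100% of 252 bases). It stood at 0.360 to 0.913 CPM, under the filter, where its reads cannot be told from those of Rps27. Rpl10l, a testis form of Rpl10, was at 0 counts in all 13 libraries, which allows up to 3 counts in each and covers counting error only.

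Other genes of the translation system gave few calls. Of 19 genes for elongation and termination factors, a kinase of elongation and other TOP mRNAs, 0 were called. An unadjusted p under 0.05 was reached by 3, all below 0 and none an elongation factor. The list median was -0.08 (-0.01 without WT replicate 2). Of 36 initiation factors, 1 was called, namely Eif4a2, an RNA helicase gene beside Adipoq on chromosome 16, the gene whose promoter drives the Cre. It stood at 200 to 257 CPM in WT and at 888 to 1219 CPM under iFAXLKO, with a log2 fold change of 2.13 (SE 0.10, edgeR adjusted p = 3.18e-09). A further 7 initiation factors had an unadjusted p under 0.05 and lay below 0, among them Eif3c (-0.21, SE 0.07, adjusted p = 0.490). The median was -0.11 and 2 of 36 lay above 0, and without WT replicate 2 the median was -0.05 and 14 of 36 lay above 0. Over all genes the same fit called 0.127%, and 473 of 13360 had an unadjusted p under 0.05 and lay below 0.

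Of 63 ribosome assembly factors, edgeR called 0 and 4 lay at an unadjusted p under 0.05, all below 0, with a list median of -0.09 and 13 of 63 above 0 (-0.05 and 25 of 63 without WT replicate 2). Imp4, part of the complex that cuts the precursor of the small subunit's ribosomal RNA, stood at 57.5, 61.3, 56.8, 55.7 and 55.8 CPM in WT replicates 1 to 5 and between 47.0 and 52.8 CPM (median 49.1) under iFAXLKO. Its ranges did not overlap, as for 0.434% of all genes, and its log2 fold change was -0.22 (SE 0.05) with an adjusted p of 0.255 by edgeR, 0.0801 by limma-voom and 0.0014 by DESeq2, which alone called it. Of 24 genes that regulate the use of these mRNAs (mTORC1, LARP1, MYC and their partners) 0 were called, and the median was -0.09. Of 14 p53 genes 0 were called, with a median of -0.02. Of 78 mitochondrial ribosomal proteins 0 were called, 6 lay above 0 (beside 46.4% of all genes) and the median was -0.08. Without WT replicate 2 their median was 0.07 and 60 of 78 lay above 0.

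Of the markers of cell types, edgeR called Adipoq alone at an adjusted p under 0.05, limma-voom likewise called 1 brown adipocyte gene, and DESeq2 called 1 brown adipocyte and 2 fibroblast genes, Dcn and Lum. All 12 fibroblast genes lay above 0 (median 0.59, 10 at an unadjusted p under 0.05, summed level 622 to 1298 CPM under iFAXLKO and 456 to 796 CPM in WT), as did all 13 macrophage genes (median 0.40, 9 at an unadjusted p under 0.05, 174 to 333 CPM and 144 to 204 CPM). Medians were 0.12 for endothelial, 0.34 for erythroid, 0.07 for Schwann cell, 0.19 for white adipocyte, -0.26 for skeletal muscle, -0.57 for lymphocyte and -0.07 for brown adipocyte genes, and no marker of any list was at 0 in all libraries. Their part in the levels of ribosomal protein genes was not tested, apart from the muscle score, with which as a covariate edgeR called 0 members, beside 0.12% of all genes.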

How the data were processed

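The authors deposited unnormalized counts of reads by Ensembl identifier in 1 file per library. Per the labels, tools named for processing are bcl2fastq 2.20, fastp 0.20.0, STAR 2.7.4a and DESeq2, with build GRCm38.p6, RNA was enriched for polyadenylated molecules, and the instrument in the series title is a NovaSeq. The methods of the study instead name Trim Galore, hisat2, depletion of ribosomal RNA and a HiSeq. Which description applies to these libraries was not tested on the counts. The counting tool, its strand setting and its treatment of reads that map to several places are not given in the sources used here, so members with near-identical copies are uncertain.

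Genes over 1 CPM in at least 5 libraries (13360) were tested with edgeR 4.0.16 (TMM factors, robust quasi-likelihood F test, 2-sided), with Benjamini-Hochberg adjustment over all genes tested and a limit of 0.05. Intervals used 95% of the t distribution. DESeq2 1.42.0 and limma 3.58.1 (voom with sample weights) were alternatives, beside other factors and filters, the replicate block, ranges of library numbers and each library left out. CPM use TMM factors, and log2 CPM a prior count of 2. Each gene was also put through an exact permutation test, 2-sided, over all 1287 splits (smallest p 0.000777), adjusted over all genes. The fit was tested on simulated data. Positions and lengths are from GENCODE M21, start windows from RefSeq. Libraries with the same replicate number did not deviate together in every pair, which leaves a pairing unsettled, and the main fit used no replicate block. The lowest chi-square between libraries of a group was 15.26 per degree of freedom, so each counted as 1 replicate, and p-values measure the spread between mice.

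Named genes were members with a known special role, reference genes, paralogs with partners, the 5 smallest p in each direction, the 3 highest and lowest levels and the most and least even. The members, lists and tests were chosen with earlier results of these data known. The transcript length of levels, the score of genes of like length, the muscle relation and the limits of the sequence search were chosen after seeing the data. Imp4, Eif3c and Eif4a2 were named after their values were seen. Some genes that met the rule are left out of the text and the plots.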

Additional observations from a re-analysis of the deposited data

Results flagged for a closer look

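In 23 of 88 groups of values, a library lay farther from the others than Dixon's 95% limit allows (0.710 for 5 libraries, 0.526 for 8). Chance gives about 1 in 20, but the members move together, so these are not independent signs.

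WT replicate 2 was the library in question for 20 genes, as the highest of 5. In the large subunit its values were 294 CPM for Rpl11, 134.0 for Rpl13, 65.4 for Rpl15, 133 for Rpl32, 46.3 for Rpl35, 46.8 for Rpl39, 294 for Rpl4, 112 for Rpl5, 266 for Rpl7a and 413 for Rplp1. In the small subunit they were 110.1 CPM for Rps15a, 155 for Rps18, 218 for Rps19, 133 for Rps26, 123 for Rps27a, 265 for Rps3 and 472 for Rpsa. Among the paralogs they were 66.0 CPM for Rpl7l1, 105 for Rps27l and 0.913 for Rps27rt. The same library had the lowest ratio of large to small subunit counts in WT, 1.372.

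Under iFAXLKO, Rpl22, an RNA-binding protein of the large subunit, was highest in replicate 3 at 88.3 CPM, and Rplp0 was highest in replicate 7 at 321 CPM. Both values lay below those of WT replicate 2 for the same genes (109 and 344 CPM).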

How the results depend on the processing

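No alternative called a ribosomal protein gene, and no result past a limit reversed. The count of genes called, 17, was 67 by DESeq2, 7 with protein-coding genes alone, 4 in the lower and 10 in the upper range of library numbers, and 7 with the replicate block, beside 11 in the same libraries without it. Same-numbered libraries did not deviate together in every pair (correlations 0.392, 0.422, 0.188, 0.181 and -0.61), 2 of 5 iFAXLKO and 3 of 5 WT libraries correlated best with their own number, and the block gave a member median of 0.05. The median core level, 62.2 CPM per kb of exon union, was 96.7 per kb of the longest and 121.3 per kb of the principal transcript.

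Small log2 fold changes of members turned sign with the processing, and the cause was not tested: 49 of 84 did so without WT replicate 2 (median 0.14), 44 by limma-voom (0.09), 43 and 33 in the upper and lower ranges of library numbers (0.07 and -0.15), 36 with library sizes that leave out the 10 most abundant and mitochondrial genes (0.05, all genes 0.04), 38 with the score of genes of like length (0.05), and 30 each without WT replicate 1 (-0.08) or 5 (-0.07). With each library left out in turn the member median lay between -0.08 and 0.14. No core gene had fewer than 553 counts in a library, so counting error was small beside the spread between mice.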
